A study of Corbicula fluminea with 24 samples.

Results

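Vitellogenin is the large lipid-carrying protein that egg-laying animals store in the oocyte as yolk. The cell that makes it secretes it with bound lipid, phosphate and metal ions, receptors of the low-density lipoprotein receptor family take it up into the oocyte, and proteases cut it into yolk proteins. In fishes the liver makes it under the control of estrogen, and its level is used there as a sign of exposure to estrogenic compounds. In bivalves the ovary is a main source, and the digestive gland, beside which the gonad lies, has been studied as another. The contigs described here are those named Vg in the deposited count table of Corbicula fluminea, the Asian clam, a hermaphroditic filter feeder of fresh water. The name alone chose them, and it takes in 2 of 58291 contigs, Vg.1.2 and Vg.2.2. The table pairs no description or source species with its names, so the role given below with a symbol is that of its namesake in other species, and the endings mark contigs that share a name and between which reads may have been split.

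RNA came from the digestive gland of 24 clams, 1 library per clam and 8 clams per site, after caging from December to March at a reference site, below the outlet of a wastewater treatment plant (WWTP) or below an urban runoff effluent. No genotype, treatment or dosing other than the site is named, and age, size, sex and stage of the gonad were not known here. With 1 caging per site, site cannot be told apart from cage, and p-values measure the spread between clams. Library totals ranged from 40.4 M to 97.7 M counts, and lanes 3 and 4 each hold 4 libraries per site. Levels are CPM, the counts scaled to a common library size with TMM factors. Digestive gland markers were read in every library, though over a wide range, with 2.74 to 1077 CPM for the endoglucanase GUN and 3.33 to 831.6 CPM for the amylase Amy.1.2. In a piece of tissue, fewer cells of a type and less RNA per cell cannot be told apart.

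Vitellogenin was read in all 24 clams, and clams of the same site differed in it far more than the sites did. Vg.1.2 spanned 140-fold, with 45.3 CPM at the low end (runoff individual 60) and 6326 CPM at the high end (WWTP individual 33), and Vg.2.2 spanned 108-fold in the same clams, from 87.7 to 9459 CPM. Together the contigs took up 0.0122% of all counts in the lowest clam and 1.48% in the highest, with a median of 0.363%.

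In reference clams Vg.1.2 stood at 459.1 CPM in individual 22, 927.2 in 23, 1015 in 25, 1846 in 31, 2178 in 30, 2819 in 21, 3112 in 29 and 3751 in 20. WWTP clams read 110.5 CPM in individual 48, 895.8 in 46, 1257 in 42, 1537 in 38, 1670 in 37, 1835 in 47, 2274 in 41 and 6326 in 33. Runoff clams read 45.3 CPM in individual 60, 625.7 in 50, 974.7 in 49, 999.4 in 63, 1008 in 55, 1813 in 53, 3033 in 56 and 3481 in 62. The 3 sites overlap, with most clams of each inside the range of the reference clams, and the low end belongs to 1 WWTP clam and 1 runoff clam. On the log2 scale the widest step in the order of all clams lay between WWTP individual 48 at 342.1 CPM and reference individual 22 at 1182 CPM, for both contigs summed (1.79 log2 units). The step below that, from runoff individual 60 at 132.9 CPM to WWTP individual 48, was 1.36 log2 units, and the step to the highest clam was 0.80.

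For Vg.2.2 the lowest, median and highest values were 722.7, 2996 and 5296 CPM in reference clams. They were 231.7, 2398 and 9459 CPM in WWTP clams and 87.7, 1824 and 5259 CPM in runoff clams. The 2 contigs rose and fell together across clams (r = 0.996 and rho = 0.985 over 24 clams, as a description), so they are not separate evidence of a difference between sites.

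**Figure D1:**
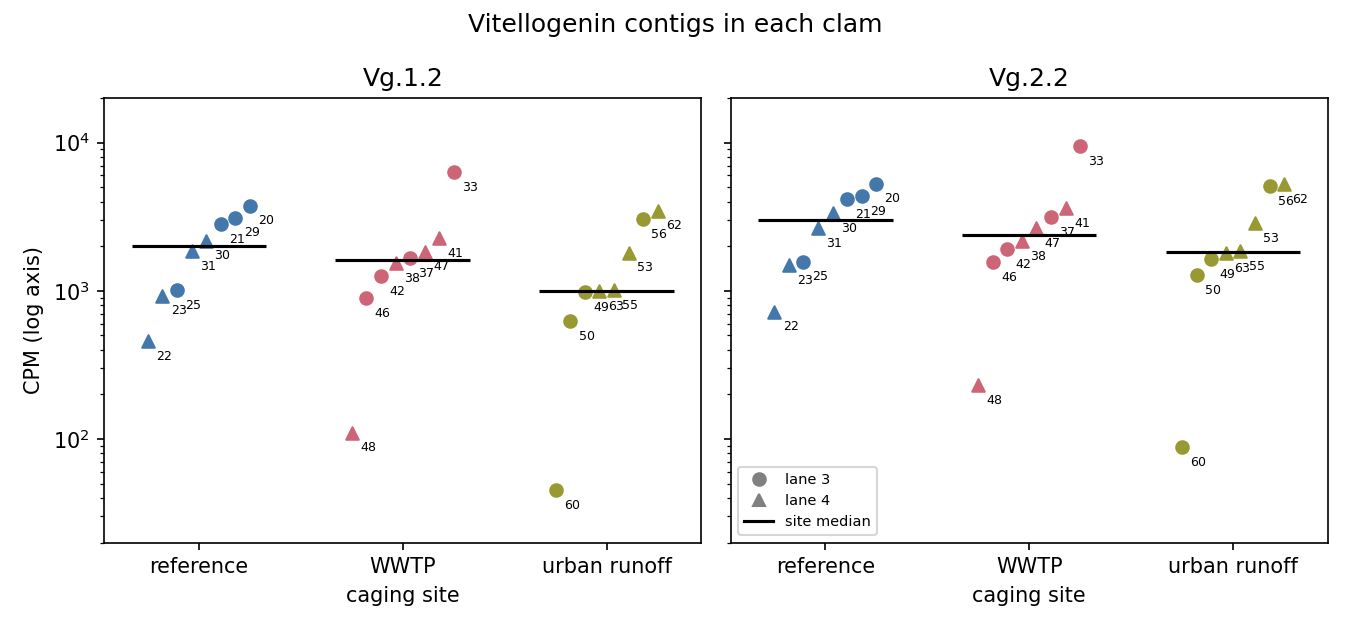
Level of each vitellogenin contig in CPM (log axis) for the 8 clams of each site, ordered by level and labelled with the clam's number; circles are lane 3, triangles lane 4, and bars are site medians. The sites overlap, and WWTP individual 48 and runoff individual 60 lie below all other clams for both contigs.

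The comparison of WWTP with reference clams asks whether the egg yolk precursor differs below a treated wastewater outlet. Vg.1.2 stood at 1988 ± 1870 CPM (SD, n = 8) against 2014 ± 1166 CPM, and Vg.2.2 at 3089 ± 2772 against 2945 ± 1610 CPM. These differences are smaller than the spread between clams. The log2 fold change was -0.02 for Vg.1.2 (SE 0.641, adjusted p = 0.995 in edgeR's quasi-likelihood test, Benjamini-Hochberg over all contigs) and 0.07 for Vg.2.2 (SE 0.608, edgeR adjusted p = 0.981). Their 95% intervals run from 0.413-fold to 2.36-fold and from 0.459-fold to 2.395-fold, so a change of about 2-fold in either direction lies within what these libraries allow. Of all contigs tested 1.47% were called in this comparison.

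Against the same reference clams, runoff clams stood at 1498 ± 1197 CPM for Vg.1.2 and 2479 ± 1826 CPM for Vg.2.2 (SD, n = 8). The log2 fold changes were -0.43 (SE 0.642, edgeR adjusted p = 0.956) and -0.25 (SE 0.608, edgeR adjusted p = 0.992), with 95% intervals of 0.311-fold to 1.78-fold and 0.368-fold to 1.92-fold. Here 0.116% of all contigs were called. Between WWTP and runoff clams the log2 fold changes were 0.41 (SE 0.642, edgeR adjusted p = 0.875) and 0.32 (SE 0.608, edgeR adjusted p = 0.899), where 1.06% of all contigs were called. Neither contig had an unadjusted p under 0.05 in edgeR in these comparisons, and neither was called by DESeq2 or limma-voom. A test over the 3 sites at once gave edgeR adjusted p of 0.946 and 0.973, while 2.03% of contigs were called.

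With both contigs summed, site held 3.93% of the variance of log2 CPM. Site means were 12.01 ± 1.01 in reference, 11.7 ± 1.57 in WWTP and 11.3 ± 1.89 in runoff clams (SD, n = 8), and no neighbours in that order differed beyond their spread by two-sided exact permutation tests of 8 against 8. The exact p were 0.711 for WWTP against reference, 0.423 for runoff against reference and 0.616 for WWTP against runoff, each 0.711 after adjustment over the 3 pairs. Without WWTP individual 48 the WWTP mean lay 0.21 above the reference mean instead of 0.27 below it (exact permutation p = 0.679), and without runoff individual 60 the runoff mean lay 0.10 below it instead of 0.70 (exact permutation p = 0.847). Without individual 60 the WWTP mean minus the runoff mean was -0.17 instead of 0.44 (exact permutation p = 0.825).

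A difference between sites in how far clams spread was not detected. The mean distance of a clam from its site's median was 0.957 log2 units in WWTP, 1.12 in runoff and 0.787 in reference clams. Exact permutation p were 0.759 for WWTP against reference, 0.650 for runoff against reference and 0.793 for WWTP against runoff, each 0.793 after adjustment over the pairs. The larger values rest on the lowest clam of each effluent site: without individual 48 the WWTP distance was 0.222 below that of reference clams, and without individual 60 the runoff distance was 0.133 below it.

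Lane 4 clams lay 0.19 log2 units below lane 3 clams (permutation p = 0.764), and 0.10 above them without WWTP individual 48 (permutation p = 0.892). Inside the sites lane 4 lay below lane 3 by 1.03 in reference clams and by 1.04 in WWTP clams, and 1.48 above it in runoff clams (exact permutation p 0.171, 0.514 and 0.314, n = 4 per lane). The runoff mean minus the reference mean was -1.96 log2 units within lane 3 (exact permutation p = 0.200) and 0.55 within lane 4 (exact permutation p = 0.429). The WWTP mean minus the reference mean was -0.26 in lane 3 and -0.27 in lane 4 (exact permutation p 0.714 and 0.829).

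Deeper libraries had less vitellogenin after scaling. Over 24 clams the log2 level and the library total gave r = -0.472 (permutation p = 0.0196) and rho = -0.470 (permutation p = 0.0216). Adjustment over the 2 relations tested in this way left both permutation p at these values. Without the 2 clams farthest from the median total r was -0.557, and without both clams lowest in vitellogenin, left out after seeing the data, it was -0.375 (permutation p = 0.0846). Within lane 3 r was -0.467 and within lane 4 it was -0.501 (n = 12 each), and within sites it was -0.511 in reference, -0.564 in WWTP and -0.570 in runoff clams (n = 8 each), as a description. The part of depth in the levels was not tested beyond this.

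The mean split of reads between the 2 contigs was farthest apart in runoff and reference clams. Only that pair of sites passed adjustment over the 3 pairs, and it did not pass adjustment over all names with 2 contigs (below). Vg.2.2 took 1.497 ± 0.0791 counts per count on Vg.1.2 in reference clams (SD, n = 8; lowest 1.40, highest 1.60), 1.76 ± 0.181 in runoff clams (1.51 to 2.04) and 1.65 ± 0.241 in WWTP clams (1.41 to 2.10). Of the runoff clams, individuals 62 and 53 lay within the reference range and the other 6 lay above all reference clams. This comparison was chosen after the values were seen. The log2 ratio was 0.23 higher in runoff than in reference clams (two-sided exact permutation p = 0.00186, p = 0.00559 adjusted over the 3 pairs of sites). WWTP clams lay 0.13 above reference clams (exact permutation p = 0.125, adjusted 0.187) and 0.10 below runoff clams (exact permutation p = 0.276, adjusted 0.276).

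The counting SD of the log2 ratio ran from 0.00320 to 0.0308 between clams, and the SD between clams was 0.0763 in reference, 0.202 in WWTP and 0.148 in runoff clams. The ratio also fell with the level of vitellogenin (r = -0.661, permutation p = 0.000380; rho = -0.613, permutation p = 0.00193; adjusted over 2 relations p = 0.000760 and 0.00386). Without the 2 clams farthest from the median level r was -0.471 (permutation p = 0.0270), and within lanes it was -0.649 in lane 3 and -0.719 in lane 4 (n = 12 each). As residuals from a straight line on that level, runoff and reference clams differed by 0.18 log2 units (exact permutation p = 0.000777). Within lane 3 the difference between runoff and reference clams was 0.33 (exact permutation p = 0.0286, the smallest that 4 against 4 can give), and within lane 4 it was 0.12 (exact permutation p = 0.229). Such shifts were common: among 1431 names with exactly 2 contigs and at least 10 counts in every library, 11.7% had an exact p under 0.05 in this comparison, and 11.7% and 9.36% in WWTP against reference and WWTP against runoff. Adjusted over those names the p for vitellogenin was 0.140, and no name passed in runoff against reference (19 had an exact p at or below that of vitellogenin).

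**Figure D2:**
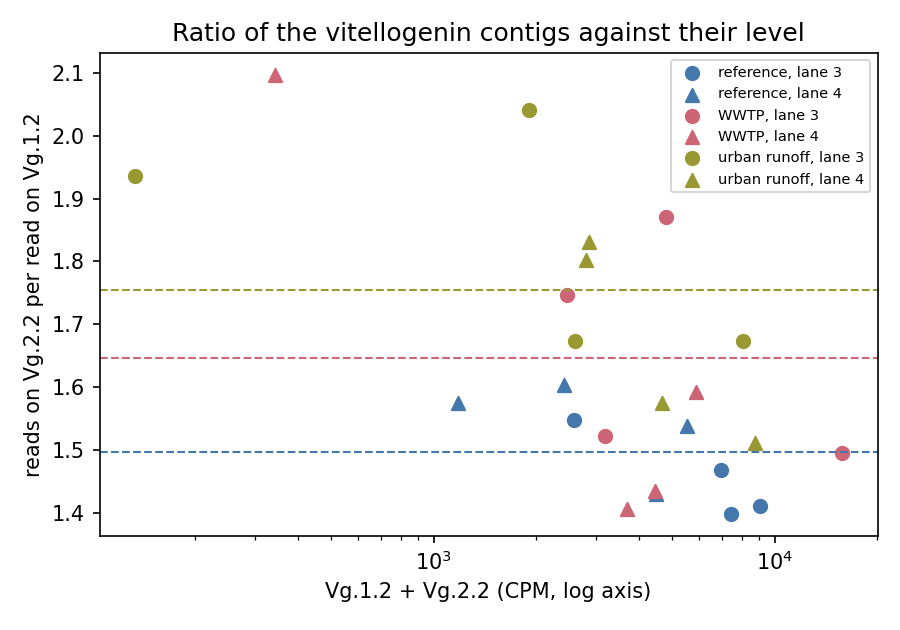
Counts on Vg.2.2 per count on Vg.1.2 (vertical axis) against the summed level of both contigs in CPM (log axis), 1 point per clam, coloured by site and shaped by lane; dashed lines are site means. Reference clams lie between 1.40 and 1.60, and 6 of 8 runoff clams lie above them.

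Transcripts that follow vitellogenin across clams were named by Pearson r of log2 CPM with the summed vitellogenin level over 24 clams. These r are descriptions, since clams share a site and a lane and contigs share the library they were read in. Of all contigs tested, 6.79% had r above 0.7 and 4.19% below -0.7. Above 0.9 there were 193 contigs, of which 4 had a symbol and a mean of at least 2 CPM, and none lay below -0.9. These shares depend on the scaling: with library totals alone the median r of all contigs went from 0.05 to 0.34, with 13.1% above 0.7 and 2.52% below -0.7, so negative and small r in particular are relative to TMM scaling. Without both clams lowest in vitellogenin 3402 contigs lay above 0.7 and 4287 below -0.7, instead of 3912 and 2412. At a given level of GUN (partial r) the numbers were 2044 and 396.

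The symbols most like vitellogenin were led by beta-tubulin, the subunit of microtubules. TBB.1.11 (r = 0.938) ran from 10.3 CPM in runoff individual 60, through a median of 146 CPM, to 481.7 CPM in WWTP individual 33. TBB.10.11 gave r = 0.937 over the same clams. Next came C1QTNF3 (r = 0.929), named for a secreted protein of the C1q and tumour necrosis factor family, with 7.73 CPM in individual 60, a median of 89.9 CPM and 391 CPM in individual 33. MZT2, a part of the complex that starts microtubules at the spindle pole, gave r = 0.919 at a mean of 3.60 CPM. The lowest and the highest clam were thus the same for these 4 contigs as for vitellogenin.

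The other 4 of the 8 were tma16, a factor bound to the large ribosomal subunit (r = 0.895), arv1, which takes part in sterol transport (0.895), HEPH.1.2, a hephaestin, named for a copper oxidase that acts on iron (0.894), and eif4g1, the scaffold of translation initiation (0.890). With library totals alone the 8 ranged from 0.904 to 0.946. For all 8 symbols r was positive inside each site, from 0.776 to 0.872 among reference clams, 0.893 to 0.978 among WWTP clams and 0.930 to 0.992 among runoff clams (n = 8 each). At a given level of GUN (partial r) the 8 ranged from 0.846 to 0.912, and without both clams lowest in vitellogenin from 0.752 to 0.859. Contigs without a symbol came closer still, with r = 0.989 for LOC107366561 (0.611 to 56.1 CPM) and 0.988 for contig_16865 (0.842 to 31.8 CPM), and without both low clams 0.969 and 0.963.

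At the other end stood Birc2 (r = -0.829) and XIAP.5.5 (-0.790), inhibitors of apoptosis, HERC2.2.2, a ubiquitin ligase (-0.820), and MGT4C, a glycosyltransferase that branches N-linked sugars (-0.801). ELF3, an epithelial transcription factor (-0.783), RAC1.2.3, a small GTPase (-0.781), PCSK4.11.15, a proprotein convertase (-0.781), and POGK, which carries a domain of transposases (-0.771), made up the 8. At a given level of GUN the 8 ranged from -0.785 to -0.670. With library totals alone 3 of the 8 stayed below -0.7, ELF3 (-0.751), RAC1.2.3 (-0.721) and MGT4C (-0.702), while Birc2 gave -0.363, HERC2.2.2 -0.184, XIAP.5.5 -0.520, POGK -0.472 and PCSK4.11.15 -0.597. Their ranges were narrow beside that of vitellogenin: MGT4C ran from 8.10 CPM in WWTP individual 33 to 24.7 CPM in reference individual 23, and Birc2 from 13.5 CPM in individual 33 to 30.7 CPM in individual 60. By rank MGT4C was the closest of these symbols (rho = -0.906). Without a symbol, LOC105326958.1.2 (-0.872) and contig_36227 (-0.857) were lowest, and with library totals alone these gave -0.893 and -0.632.

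**Figure D3:**
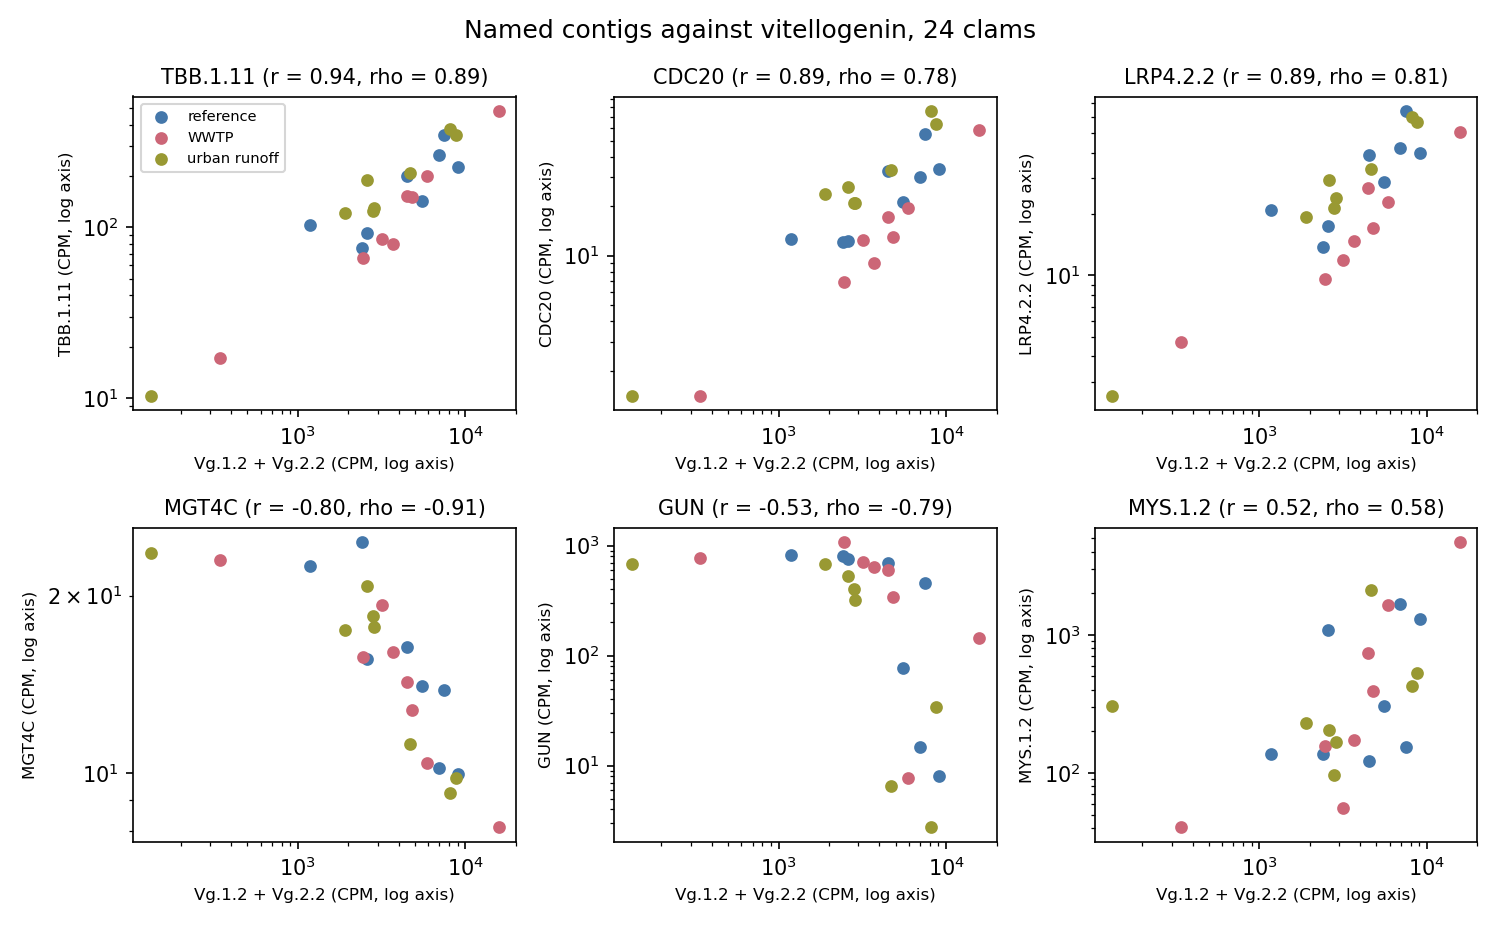
Level of 6 named contigs (CPM, log axis) against the summed level of vitellogenin (CPM, log axis) in 24 clams, 1 point per clam, coloured by site. TBB.1.11, CDC20 and LRP4.2.2 climb with vitellogenin at all sites, MGT4C descends, GUN is low in several clams of high vitellogenin, and MYS.1.2 is highest in WWTP individual 33.

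Of the digestive enzymes GUN, Amy.1.2 and LIPA, set beside vitellogenin with earlier results known, ran against it, and by rank more closely than in a straight line. GUN gave r = -0.529 and rho = -0.794, Amy.1.2 -0.537 and -0.844, and the lipase LIPA -0.538 and -0.837. Amy.1.2 and LIPA followed GUN almost exactly (r = 0.999 and 0.995), so these enzymes are not separate observations. At a given level of GUN the r of Amy.1.2 and LIPA with vitellogenin was -0.187 and -0.132. Runoff individual 56 had the lowest GUN (2.74 CPM) and the fourth highest vitellogenin (8107 CPM for both contigs), while individual 60 had the lowest vitellogenin (132.9 CPM) with 686 CPM of GUN. The relation did not hold clam by clam: reference individual 29 had 7464 CPM of vitellogenin with 454 CPM of GUN, and runoff individual 53 had 4668 CPM with 6.58 CPM. The other amylase contig, Amy.2.2 (mean 3.54 CPM), ran with vitellogenin instead (r = 0.755, or 0.545 without both low clams). The muscle myosin MYS.1.2 gave r = 0.522 and rho = 0.578, and was highest at 4702 CPM in WWTP individual 33.

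Genes named for processes tied to vitellogenin in other animals were described as lists, matched by name and drawn up with earlier results of these data known. Whether any of these contigs, the receptors included, acts with vitellogenin in this clam was not tested. Of the 7 contigs of lipoprotein receptors and carriers, 3 had r above 0.7 and none below -0.7 (median 0.63, against 0.05 for all contigs). LRP4.2.2 (r = 0.889; 2.55 to 64.2 CPM) and LRP4.1.2 (0.889), members of the low-density lipoprotein receptor family, followed vitellogenin most closely, with the multiligand receptor CUBN.1.2 (0.722). VLDLR, the gene name of the receptor that takes up yolk in birds, gave 0.355, LRP1 gave -0.154 (0.00343 with library totals alone) and the lipid carrier APOD -0.542. At a given level of GUN APOD gave -0.147, LRP1 -0.360 and LRP4.2.2 0.845.

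Among 11 tested contigs of egg yolk and egg coat, none lay beyond 0.7 in either direction (median 0.29). Without both low clams 1 lay above 0.7 and 3 below -0.7 (median 0.055). GP2.1.3 (0.691) and UROM (0.610), which share the domain of egg envelope proteins with other secreted proteins, were highest. FRIS (-0.657, 2712 to 8987 CPM) and CTSV, a cathepsin (-0.683), were lowest. FRIS is named for the soma ferritin rather than a yolk ferritin, and FRIS and CTSV ran with GUN (r = 0.912 and 0.810). At a given level of GUN their r with vitellogenin was -0.500 and -0.512. VMO1, named for a protein of the outer vitelline membrane of bird eggs, gave -0.602. CATS fell under the filter on low counts, with a mean of 0.0837 CPM.

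Of 32 contigs of proprotein convertases and secretory processing, 2 had r above 0.7 and 5 below -0.7 (median -0.15, or 0.04 with library totals alone). FA20C.1.2, the secretory kinase (0.714), and PCSK4.10.15 (0.788, mean 1.13 CPM) were above. PCSK4.11.15, PCSK4.14.15 (-0.764), PCSK4.9.15 (-0.737), Furin (-0.724) and FUR (-0.70) were below, so contigs of the name PCSK4 ran both ways, with 1 of 15 above and 3 below. For PCSK4.5.15, the most abundant of them (mean 42.3 CPM), r was 0.592.

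Of 15 contigs of entry into and folding in the endoplasmic reticulum, only SSR4, a subunit of the translocon complex, lay above 0.7 (0.722), and FKBP2 gave 0.449. The median of the list was -0.24, or 0.13 with library totals alone. The ubiquitin-like UFM1.1.3 (-0.623) and txndc12, of the thioredoxin family (-0.574), were lowest, and with library totals alone they gave -0.168 and -0.469. Of 18 contigs of steroid, retinoid and thyroid hormone genes none lay beyond 0.7 (median -0.44). Without both low clams 2 lay below -0.7 (median -0.55). dio1, an iodothyronine deiodinase (0.554), and the retinoid X receptor RXR (0.423) were the highest with a mean of at least 2 CPM. RBP4, which carries retinol (-0.637), and the retinol dehydrogenase RDH7.1.2 (-0.602) were the lowest of those, and Dio1_bis gave -0.659 at a mean of 0.753 CPM. At a given level of GUN RBP4 gave -0.431 and RDH7.1.2 -0.343. BCO2.2.2 had the highest r of the whole list, 0.643 at a mean of 1.79 CPM. Er, a symbol that more than 1 gene carries, gave 0.571 at a mean of 1.30 CPM, and GPER1, the membrane estrogen receptor, 0.333 at 0.557 CPM.

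Of 19 contigs of lipid supply, 1 lay above 0.7 and none below -0.7 (median 0.17), namely KIME.2.2, a mevalonate kinase (0.726), with KIME.1.2 at 0.570. ACSF3 (-0.650) and ACBD5 (-0.595), of fatty acid activation and binding, were lowest, and at a given level of GUN they gave -0.490 and -0.334. Without both low clams 1 of the 19 lay above 0.7 and 1 below -0.7. Among 8 contigs of iron and metal handling, 1 lay above 0.7, HEPH.1.2, and the metallothionein MT gave 0.605. The more abundant HEPH.2.2 (192 against 6.29 CPM on average) gave -0.562.

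Markers of other cells were set beside vitellogenin as well. Of 9 germ line and meiosis contigs all were read in every library and all had a positive r, from 0.215 for MSH4 to 0.742 for CTCFL, with DAZP1 at 0.638 and PRDM9 at 0.351. ZAR1, named for an oocyte factor of vertebrates, gave 0.363 at a mean of 1.41 CPM. At a given level of GUN ZAR1 gave -0.0324, where the median of the list was 0.385. Their summed level ran from 56.7 to 126 CPM in reference, 46.4 to 191 CPM in WWTP and 37.9 to 156 CPM in runoff clams. Only 1 of the 9 lay above 0.7, and without both low clams the median of the list went from 0.42 to 0.20. Without them MSH4 gave -0.0970 and PRDM9 -0.00657.

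Of 19 cell division contigs 9 lay above 0.7, or 47.4%, against 6.79% of all contigs, and none below -0.7 (median 0.69). CDC20, an activator of the ligase that ends mitosis, gave r = 0.887 and ran from 1.40 CPM in WWTP individual 48 to 76.2 CPM in runoff individual 56, with a median of 20.9 CPM. The ubiquitin carrier UBE2C (0.865), the centromere proteins CENPP (0.863), CENPK (0.836) and CENPS (0.829) and the ribonucleotide reductase subunit RIR2 (0.796) lay above 0.7 too, while CENPA gave 0.392, RFA1 -0.150 (0.140 with library totals alone) and ZW10 -0.251. Without the 2 low clams this count fell to 3 of 19, beside 3402 of all 57593 contigs. The list median was then 0.45, against 0.04 for all contigs. At a given level of GUN 7 of the 19 lay above 0.7, beside 2044 of all contigs. With library totals alone 12 did (63.2%, against 13.1% of all contigs). The summed level ran from 160 to 343 CPM in reference, 129 to 479 CPM in WWTP and 100.4 to 406 CPM in runoff clams.

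Of 36 contigs of cilia and tubulin, 12 lay above 0.7 and 1 below -0.7 (median 0.60), with 10 above and 1 below when both low clams were left out. They include 4 of 11 contigs named TBB and 4 of 7 named TBA1. A positive r was found for 31 of the 36. DYL1.1.2, a dynein light chain (-0.742), and TBA1.6.7 (-0.571, or -0.292 at a given level of GUN) ran against vitellogenin. TBB.4.11 (-0.478, mean 1.47 CPM), TBB.6.11 (-0.235) and CCDC190 (-0.127) were negative too. Of the other genes of cilia, CCDC172 gave 0.736, bbs10 0.653, DNAL1 0.587, DYL1.2.2 0.461, CFA20 0.392, cfap44 0.322, maats1 0.309 and cfap65 0.0653. Summed levels were 5790 to 12651 CPM in reference, 5061 to 12682 CPM in WWTP and 4638 to 9799 CPM in runoff clams.

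None of 19 muscle contigs lay beyond 0.7 (median 0.57). TPM.1.5, a tropomyosin (0.647), and MLR.5.5, a myosin regulatory light chain (0.640), were highest, and Projectin (-0.619) and ACTM (-0.209, or 0.0254 with library totals alone) lowest. Without both low clams 9 of 19 were above 0.7 and 1 below -0.7. The summed level of the muscle list ran from 3966 to 8394 CPM in reference, 3848 to 21028 CPM in WWTP and 3857 to 9423 CPM in runoff clams. Much of this sum is the actin contig ACTC.2.2 (mean 3593 CPM, r = 0.499). TPM.1.5 alone ran from 42.2 to 1846 CPM over all clams. Of 23 tested digestive enzyme contigs 1 lay above 0.7, Amy.2.2, and none below -0.7 (median -0.53), while 9 of the 23 had a positive r. Lctl gave 0.652 at a mean of 0.340 CPM, the lysozyme LYS.1.5 gave 0.604, and ctrl.L, named for a chymotrypsin-like protease, 0.539. LYS1 (-0.639) and CBPQ, a carboxypeptidase (-0.630), were lowest, and with library totals alone they gave -0.245 and -0.709. Without both low clams none of the 23 lay above 0.7 and 2 lay below -0.7 (median -0.63), with Amy.2.2 at 0.545. At a given level of GUN the median of the list was -0.12, with Amy.2.2 at 0.721. The part of these tissues in the level of vitellogenin was not tested.

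**Figure D4:**
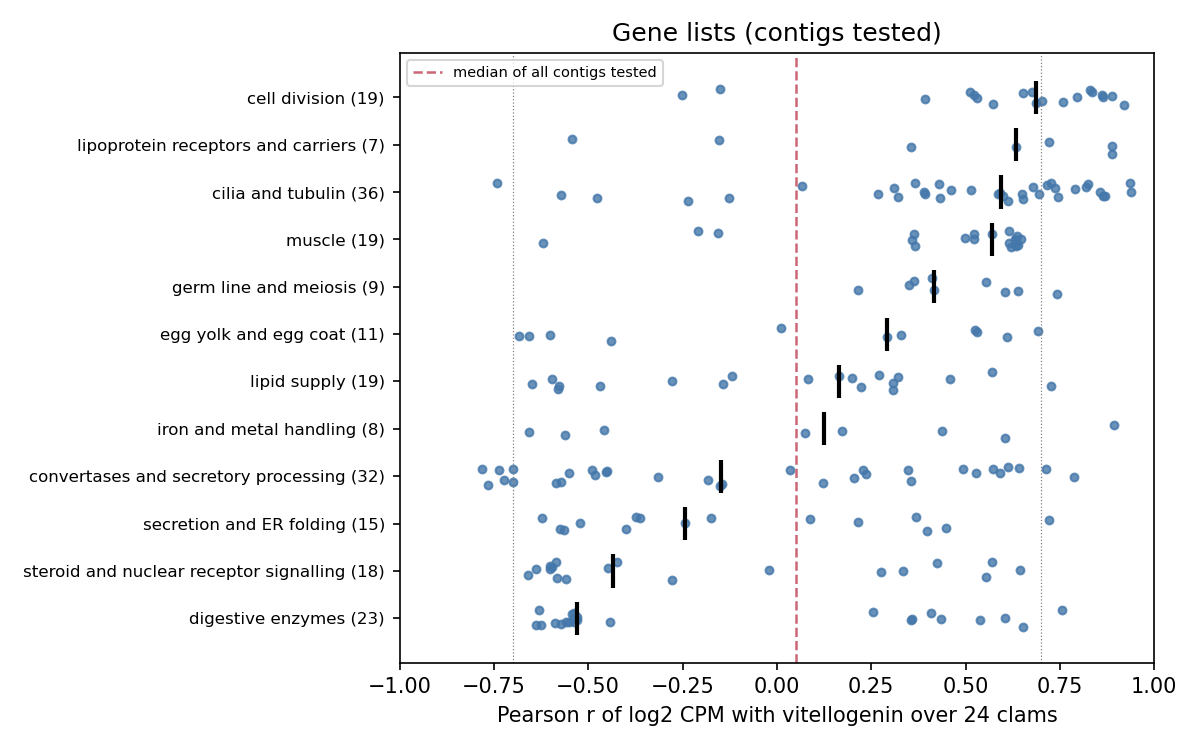
Pearson r with the summed level of vitellogenin over 24 clams for each tested contig of 12 gene lists, with the number of contigs in brackets; black bars are list medians, the dashed line is the median of all contigs tested and dotted lines mark 0.7 and -0.7. Cell division and lipoprotein receptor lists have the highest medians (0.69 and 0.63), digestive enzymes the lowest (-0.53).

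Between sites these lists held few calls. Their share was near that over all contigs in both comparisons with WWTP clams, and above it in runoff against reference, where it rests on 1 contig. Of 215 list contigs tested 3 passed in WWTP against reference (1.40%, against 1.47% of all contigs, edgeR, adjusted p under 0.05). An unadjusted p under 0.05 was found for 16 of the 215, a smaller share than the 14.5% of all contigs. In runoff against reference 1 passed (0.465%, against 0.116%) and 7 had an unadjusted p under 0.05, a smaller share than the 9.95% of all contigs. In WWTP against runoff 2 passed (0.930%, against 1.06%) and 21 had an unadjusted p under 0.05, a smaller share than the 13.5% of all contigs. The genes called were sec61g and OST4, small subunits of the translocon and of the oligosaccharyltransferase, both higher in WWTP clams than at either other site, Bscl2, the seipin of lipid droplets, lower in WWTP than in reference clams, and ACSL1, which activates fatty acids, lower in runoff than in reference clams. Of all contigs 1.01% were called higher and 0.455% lower in WWTP than in reference clams, 0.0469% higher and 0.0695% lower in runoff than in reference clams, and 0.769% higher and 0.288% lower in WWTP than in runoff clams. The r with vitellogenin was -0.176 for sec61g, 0.0881 for OST4, 0.0827 for Bscl2 and 0.322 for ACSL1, and with library totals alone -0.0322, 0.480, 0.390 and 0.512. For OST4 it was 0.336 within lane 3 and -0.351 within lane 4. Scaled by library totals alone, 1, 0 and 1 list contigs were called in these comparisons, against 0.286%, 0% and 0.939% of all contigs. DESeq2 called 4, 4 and 7, against 4.04%, 1.43% and 3.42% of all contigs, and limma-voom 2, 1 and 3, against 1.52%, 0.229% and 1.19%. The median log2 fold change of the list contigs was 0.11, -0.01 and 0.09.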

How the data were processed

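The authors deposited 1 table of raw read counts per contig, 1 column per clam; per the submitters' processing notes BWA 0.7.12 and SAMtools 1.1 were used. The assembly, contig naming and counting rule were not named in the sources used here. edgeR 4.0.16 (R 4.3.3) kept 57593 contigs (filterByExpr, minimum count 10), scaled libraries by TMM and fitted all 24 together by site (robust quasi-likelihood; Benjamini-Hochberg, threshold 0.05). Intervals of 95% are the log2 fold change with its SE as normal. Log2 CPM used a prior count of 2; tests of single values summed both contigs and took all 12870 splits of 8 against 8, and 100000 resamples for lane and library total. The count test and the correlations were tested on simulated data. Named by rule were the 8 symbols (mean at least 2 CPM) and 2 other contigs (at least 5 CPM) with the highest and lowest r, 2 at each end of every list, list members called, and GUN, Amy.1.2, LIPA and MYS.1.2; other list members were chosen after their values were seen. The members and lists were chosen with earlier results of these data known, and lists were redrawn from the names in the table. Alternatives used other scalings, filters, tools (DESeq2 1.42.0, limma 3.58.1), lanes, 2-site fits, prior counts of 0.5 and 5, a GUN term, and each library left out.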

Additional observations from a re-analysis of the deposited data

Results flagged for a closer look

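In a group of 8, 1 value stood apart from the others by more than 0.526 of the group's range (Dixon's 95% limit) in 27 of 225 groups tested; chance flags about 1 in 20 of independent groups. These groups are not independent, since many hold contigs chosen for following vitellogenin, so the number cannot be read against that share. WWTP individual 33 was the highest of its site for 14 of the 27. These were Vg.1.2 at 6326 CPM, Vg.2.2 at 9459 CPM and their sum at 15786 CPM, against 5896 CPM in the next clam, and also TBB.1.11 (481.7 CPM), TBB.10.11 (647 CPM), C1QTNF3 (391 CPM), MZT2 (8.30 CPM), HEPH.1.2 (16.6 CPM), CDC20 (58.5 CPM) and LOC107366561 (56.1 CPM). The muscle contigs MYS.1.2 (4702 CPM), TPM.1.5 (1846 CPM) and MLR.5.5 (487.7 CPM) and the metallothionein MT (478.7 CPM) stood out in the same clam. In log2 units its summed vitellogenin was not flagged (13.9, with 12.5 in the next WWTP clam), so that flag depends on the scale.

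On the log2 scale runoff individual 60 was low, at 7.05 for the summed vitellogenin against 10.9 in the next runoff clam. Runoff individual 53 was high in MYS.1.2 (2096 CPM), TPM.1.5 (787 CPM) and MLR.5.5 (213 CPM), with 4668 CPM of vitellogenin. Other single high values were dio1 in runoff individual 56 (6.95 CPM), ACSL1 in runoff individual 62 (3.19 CPM), MSH4 in WWTP individual 47 (9.73 CPM) and runoff individual 63 (9.02 CPM), and CENPA in runoff individual 63 (4.26 CPM). The same holds for Amy.2.2 in runoff individual 49 (7.61 CPM), LYS.1.5 in reference individual 30 (110 CPM), LRP1 in reference individual 21 (16.1 CPM) and sec61g in reference individual 25 (112 CPM).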

How the results depend on the processing

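Neither contig passed in any of the alternatives of the count test (lowest adjusted p 0.323), and the log2 differences between sites, smaller than their errors, changed sign under several; the cause was not tested. For WWTP against reference Vg.2.2 gave -0.10 with library totals alone, -0.22 in limma-voom and -0.17 with sample quality weights, and Vg.1.2 gave 0.19 with GUN as a term. Scaling by library totals shifted all contigs as well: their median log2 difference was -0.16 there instead of 0.01, and -0.20 instead of -0.01 in WWTP against runoff. Within lane 4 Vg.1.2 gave 0.0897 in WWTP against reference. There Vg.1.2 and Vg.2.2 gave 0.45 and 0.54 in runoff against reference and -0.36 and -0.46 in WWTP against runoff. The summed level in lane 4 gave 0.55 in runoff against reference and -0.82 in WWTP against runoff, and its spread -0.19 and 0.51. The ratio of the contigs in runoff against reference was 0.12 there and no longer passed (exact permutation p = 0.229).

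Excluding both clams lowest in vitellogenin, chosen after seeing the data, the level in WWTP against reference was 0.21, its spread -0.22, the spread in runoff against reference -0.13, and r with library total -0.375, which no longer passed.

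With each library left out in turn, WWTP against reference ran from -0.56 (without individual 33) to 0.17 for Vg.1.2 and from -0.43 to 0.24 for Vg.2.2. Runoff against reference ran from -0.73 to -0.24 and from -0.50 to -0.06. WWTP against runoff ran from -0.13 to 0.71 and from -0.19 to 0.57. The summed level ran from -0.58 to 0.21, from -0.96 to -0.10 and from -0.17 to 0.91 in the same 3 comparisons. Its spread ran from -0.22 to 0.38, from -0.13 to 0.54 and from -0.56 to 0.30. Lane 4 against lane 3 ran from -0.62 to 0.10. The ratio in runoff against reference, chosen after the values were seen, ran from 0.19 to 0.26 (exact permutation p up to 0.00451). These p are not adjusted over the names with 2 contigs, which with no library left out gave 0.140. The r with library total ran from -0.520 to -0.427. No paired analysis was possible because individual numbers are not shared between sites. The lowest count of a vitellogenin contig was 3332. Of the r with 70 named contigs 20 moved by more than their own sampling error with library totals alone, 32 as Spearman rho, 12 within lane 3, 20 within lane 4, 9 with site means removed, 24 without both low clams and 44 of 69 at a given level of GUN.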
